A study of Caenorhabditis elegans with 6 samples.

Results

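The body wall muscle contractile genes of the nematode Caenorhabditis elegans were given as a list of 44 gene names. Their proteins belong to the thick and thin filaments, the troponin complex, the dense bodies and the attachment of the sarcomere to the cell membrane. The list was matched by name to a table of 45292 genes, and 43 of the 44 names were found. The name tmd-1 was not, while unc-94, the tropomodulin gene, was. A name that was not found need not stand for a further gene. All 43 had enough counts to be tested. The members lie on chromosomes I (11 genes), II (1), III (6), IV (4), V (8) and X (13), and their lengths in the table run from 429 bases in cpn-3 to 11133 bases in dys-1.

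RNA was sequenced from age-synchronized young adult hermaphrodites after X-ray doses of 0, 200 or 400 Gy (gray, a measure of absorbed radiation) from a linear accelerator; the worms were 24 h past the L4 larval stage. There were 2 libraries at 0 Gy, 2 at 200 Gy and 2 at 400 Gy, made from total RNA with a TruSeq kit that does not mark strand. The labels name no strain or genotype and no time between irradiation and harvest, and leave it unstated whether libraries of 1 dose were grown separately. The p-values therefore reflect only how far these libraries differ, which may be technical. The labels name no tissue, and in bulk samples fewer cells of a type and less RNA per cell cannot be told apart.

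In a worm's body wall muscle, thick filaments of myosin and paramyosin are held at the M-line and slide past thin filaments of actin, tropomyosin and troponin, which are anchored at the dense bodies. Troponin C binds the calcium that enters through a voltage-gated channel in the membrane, and the complex then lets tropomyosin move on the actin. Dense bodies and M-lines both sit on integrins, and adaptor proteins there pass the pull of the filaments through the basement membrane to the cuticle. No sequence is printed, since the reference used here holds none.

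Total gene counts ran from 9554479 to 12315765 per library, and 14417 genes of the table were tested. Levels of a gene across libraries are given in CPM (the usual depth-scaled count) on edgeR's TMM scale, its trimmed mean of log ratios, and levels of different genes are compared in deposited RPKM, which also divides by the gene's length. Each log2 fold change stands with ± its standard error (SE), from edgeR's quasi-likelihood test, with 3 residual degrees of freedom and p-values adjusted by the Benjamini-Hochberg method over all tested genes; a gene was called where the adjusted p was under 0.05. Libraries of 1 dose differed far beyond counting noise, with chi-square values of 44.9 to 83.7 per degree of freedom. TMM factors were 1.19 and 1.24 (0 Gy), 0.751 and 0.945 (200 Gy), then 0.928 and 1.03 (400 Gy). With library totals alone, the scale of RPKM, the median log2 fold change of all tested genes was -0.43 at 200 Gy against 0 Gy, -0.35 at 400 Gy against 0 Gy and 0.11 at 400 Gy against 200 Gy, where TMM gave 0.099, -0.035 and -0.10; upper-quartile scaling gave 0.19, -0.12 and -0.29. Libraries also differed by gene length. The slope of a library's log2 deviation on log2 length was 0.069 and 0.052 (0 Gy), -0.28 and -0.53 (200 Gy), then 0.42 and 0.28 (400 Gy), so short and long members are described apart. Short means below 1086 bases, the median of all tested genes, which leaves 12 short and 31 long members.

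Per unit of length, the members differed widely in level. At 0 Gy the troponin C gene pat-10 stood highest, with 1925 and 2522 RPKM in the 2 libraries, and the calcium channel gene egl-19 lowest, with 1.95 and 4.02 RPKM. The essential myosin light chain mlc-3 reached 1093 and 1415 RPKM, while the major myosin heavy chain unc-54 stood at 95.9 and 168 RPKM and the minor heavy chain myo-3 at 10.3 and 14.8 RPKM. Among the defining genes of body wall muscle, unc-54 and myo-3 were thus present in every library, and the muscle transcription factor hlh-1, which is no member, had 21 to 58 counts in each.

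**Figure D1:**
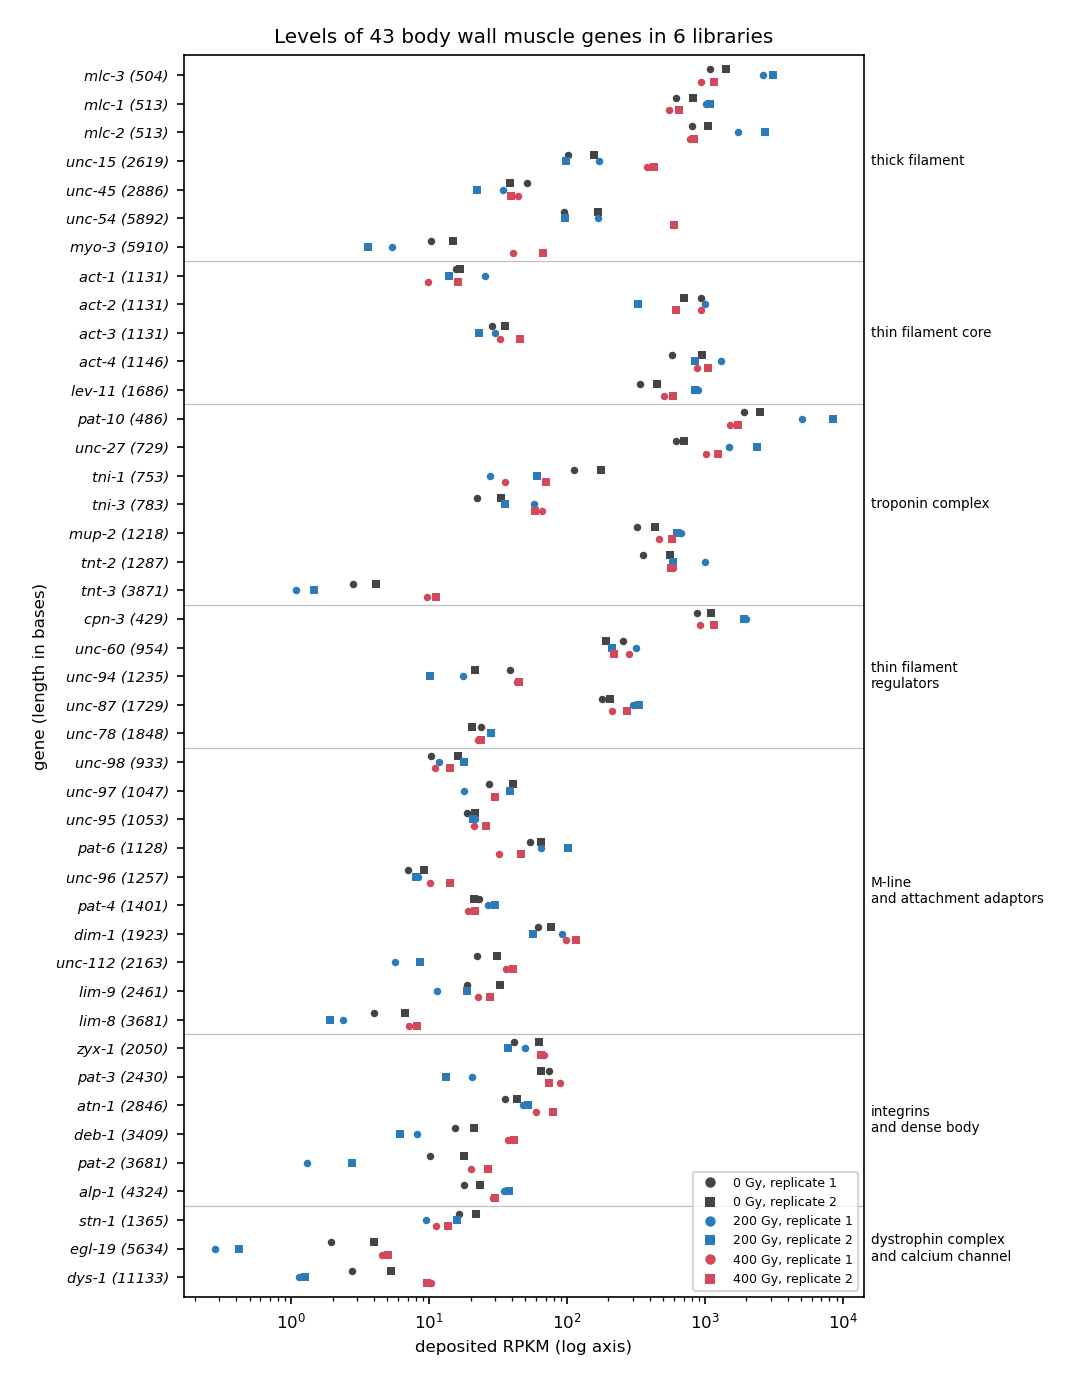
Deposited RPKM of the 43 members in the 6 libraries, on a log axis, with genes grouped by role and ordered by length within a role (length in bases in brackets). Black marks are 0 Gy, blue 200 Gy and red 400 Gy, circles replicate 1 and squares replicate 2; short genes such as pat-10 and mlc-3 sit to the right at 200 Gy, and long genes such as myo-3 and dys-1 to the right at 400 Gy.

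The comparison of 200 Gy with 0 Gy asks which members differed after the lower dose. Of the 43 members 9 rose and 4 fell; over all tested genes 7.03% rose and 8.71% fell. The members that rose encode troponin subunits (pat-10, unc-27, mup-2), myosin light chains (mlc-2, mlc-3), tropomyosin (lev-11), calponin-type actin binders (cpn-3, unc-87) and the dense body protein alp-1, by 2.38- to 4.31-fold. Those that fell were the integrins pat-2 and pat-3, the kindlin unc-112 and the calcium channel egl-19, by 2.61- to 5.94-fold. The members' median log2 fold change was 0.65, against 0.099 over all tested genes. In 22 members both 200 Gy libraries lay above both 0 Gy libraries and in 10 below; over all tested genes these shares were 33.3% and 29.9%. Among the 12 short members 5 rose and 0 fell in edgeR's test, where 12.1% of all short genes rose and 1.49% fell. Of the 12, 8 had an unadjusted p under 0.05. The short members' median was 1.21, against 0.65 over all short genes. Over all 43 members, short and long, DESeq2's Wald test called 12 higher and 6 lower. Over all tested genes the Wald test called 1556 higher and 1771 lower. Among the 31 long members 4 rose (12.9%) and 4 fell (12.9%) in edgeR's test, where 1.99% of all long genes rose and 15.9% fell, so the share that fell was near that of all long genes. The 4 that rose include lev-11, long by the table's length of 1686 bases, while its longest coding sequence has 852 bases. The long members' median was 0.31, against -0.46 over all long genes.

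Upper-quartile scaling kept all 13 calls and DESeq2's size factors kept 11 of them. With library totals alone 4 members were higher (pat-10, unc-27, mlc-2, mlc-3) and 9 lower, where 1.71% of all tested genes were higher and 18.2% lower. Without either 0 Gy library the calls did not hold, for the members or for any tested gene. Calls also moved when a 400 Gy library was left out, and the ranges for members and all tested genes are given at the end.

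The comparison of 400 Gy with 0 Gy, which shares the 0 Gy libraries with the comparison above, asks the same of the higher dose. By edgeR's test 0 of the 43 members passed the threshold, with 16 at an unadjusted p under 0.05. DESeq2's Wald test called 9 members higher and 0 lower, and over all tested genes it called 949 higher and 404 lower. Over all tested genes edgeR called 0.0416% higher and 0.00694% lower. That is 6 genes higher and 1 lower, against 194 and 79 with DESeq2's size factors, 7 and 3 with upper-quartile scaling, and 7 and 6 with library totals. The members' median log2 fold change was 0.66, against -0.035 over all tested genes. Both 400 Gy libraries lay above both 0 Gy libraries in 29 of the 43 members and below in 2 (tni-1 and stn-1), where all tested genes gave 28.1% and 31.1%. Among the 31 long members 25 (80.6%) lay above, against 39.3% of all long genes, and among the 12 short members 4 did (33.3%), against 16.8% of all short genes. The 4 highest estimates belonged to the major heavy chain unc-54 at 2.50 ± 0.51 (adjusted p = 0.0754), myo-3 at 2.41 ± 0.44 (adjusted p = 0.0627), the paramyosin gene unc-15 at 1.96 ± 0.47 (adjusted p = 0.0945) and the troponin T gene tnt-3 at 1.92 ± 0.34 (adjusted p = 0.0607). The count of calls moved with the libraries used. With the 0 and 400 Gy libraries alone 9 members (8 higher, 1 lower) and 2145 genes in all were called. Calls also moved when a 200 Gy library was left out, and the ranges for members and all tested genes are given at the end. With library totals alone 9 members without a call changed sign (mlc-1, mlc-2, mlc-3, unc-45, act-2, unc-97, unc-98, pat-4 and lim-9), and the median was 0.34.

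The comparison of 400 Gy with 200 Gy sets the doses against each other. Of the 43 members 11 were higher at 400 Gy and 5 lower, with 15.0% and 16.2% over all tested genes. The 11 were both myosin heavy chains, both integrins, vinculin (deb-1), kindlin (unc-112), dystrophin (dys-1), the calcium channel egl-19, tnt-3, the LIM protein lim-8 and unc-94, and all 11 are long. They make up 35.5% of the long members, where 27.9% of all long genes were higher. The 5 lower members were pat-10, mlc-2, mlc-3, cpn-3 and the parvin gene pat-6, and 4 of them are short. Those 4 make up 33.3% of the short members, where 29.6% of all short genes were lower. The median log2 fold change was -0.062 for the members and -0.10 for all tested genes, a difference of under 0.1; it was -0.69 in the short members and 0.30 in the long ones, against -0.86 and 0.77 over all short and all long genes. In 14 members both 400 Gy libraries lay above both 200 Gy libraries and in 14 below, against 31.1% and 34.6% of all tested genes. The calls moved with the library left out, for members and for all tested genes, and both ranges are given at the end. With library totals 12 members were higher and 4 lower, and over all tested genes 2701 were higher and 1659 lower, against 2157 and 2338 on the TMM scale.

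**Figure D2:**
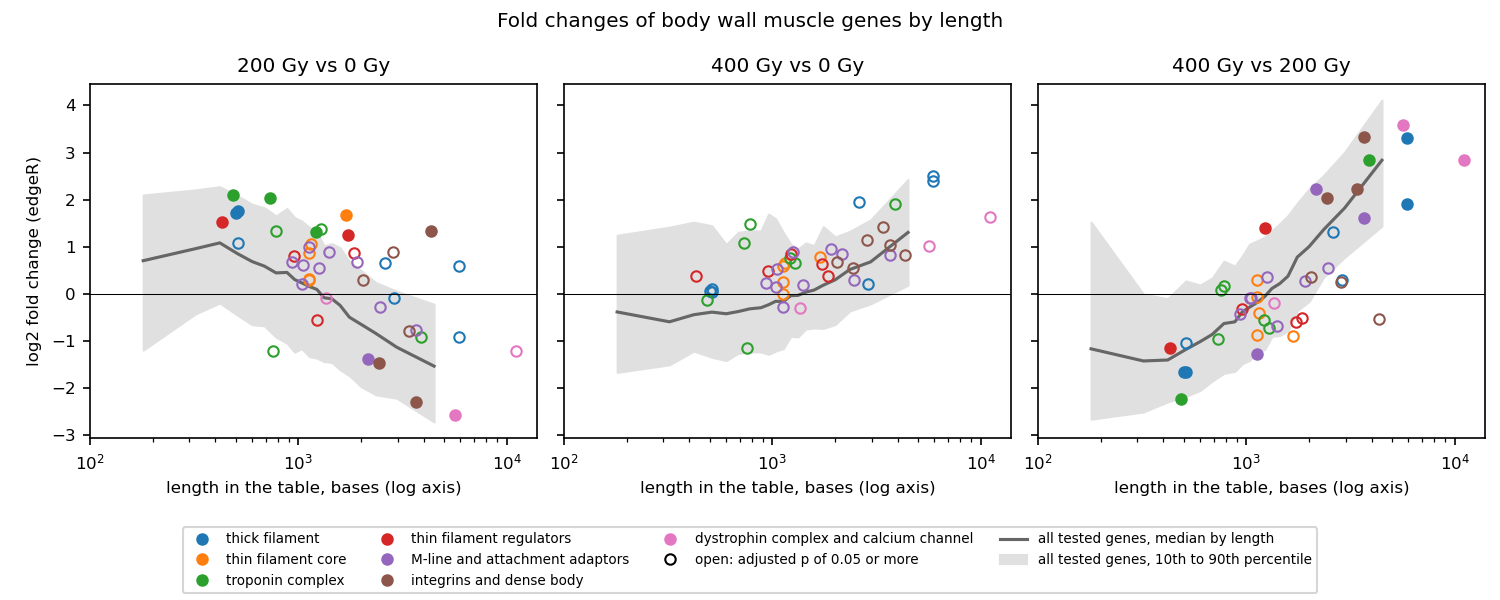
Log2 fold change of each member (vertical axis) against its length in bases on a log axis, for the 3 comparisons; colours mark roles, filled points have an adjusted p under 0.05, and the grey line and band are the median and the 10th to 90th percentile of all tested genes by length. At 400 Gy against 200 Gy the members range from pat-10 at -2.23 to egl-19 at 3.58.

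In the thick filament, both long heavy chain genes rose at 400 Gy against 200 Gy while 2 of the 3 short light chain genes fell. Coordinates here and below are whole gene spans in the WBcel235 build. Calls by role are those without the length correction, which is described after them. The major heavy chain gene unc-54 (chromosome I, 14856181 to 14863450, 5892 bases) had 475 and 802 CPM at 0 Gy, 1313 and 601 CPM at 200 Gy, and 3800.4 and 3404 CPM at 400 Gy. Its 400 Gy libraries lay far above the other 4, and the 200 Gy libraries overlapped the 0 Gy ones. It rose at 400 Gy against 200 Gy (log2 fold change 1.91 ± 0.50, adjusted p = 0.0234), and its estimate at 200 Gy against 0 Gy was 0.58 ± 0.49 (adjusted p = 0.410). The minor heavy chain myo-3 (chromosome V, 12226968 to 12234300, 5910 bases), which builds the middle of the thick filament, had 51.01 and 70.8 CPM at 0 Gy, 42.4 and 22.7 CPM at 200 Gy, and 260.1 and 386 CPM at 400 Gy. The 3 doses did not overlap, with 200 Gy lowest and 400 Gy highest. Its level rose 9.93-fold at 400 Gy against 200 Gy (3.31 ± 0.46, adjusted p = 0.00371).

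Of the light chains, mlc-2 and mlc-3 rose at 200 Gy against 0 Gy. The essential light chain mlc-3 (chromosome III, 5565132 to 5566958, 504 bases) had 463 and 576 CPM at 0 Gy, 1759 and 1663 CPM at 200 Gy, and 509 and 569.8 CPM at 400 Gy, so both 200 Gy libraries stood apart from the other 4. It rose at 200 Gy against 0 Gy (1.72 ± 0.36, adjusted p = 0.0263) and was lower at 400 Gy than at 200 Gy (-1.66 ± 0.36, adjusted p = 0.0117). The regulatory light chain mlc-2 (chromosome X, 17455901 to 17456567) had 350.4 and 437 CPM at 0 Gy, 1188 and 1471 CPM at 200 Gy, and 428 and 416 CPM at 400 Gy. It followed mlc-3, with 1.76 ± 0.36 at 200 Gy against 0 Gy (adjusted p = 0.0260) and -1.65 ± 0.36 at 400 Gy against 200 Gy (adjusted p = 0.0122). Its neighbour mlc-1, a regulatory light chain of the same length, is a near-identical copy, so the counting may have divided reads between them and both values are uncertain. Estimates for mlc-1 were 1.09 ± 0.35 at 200 Gy against 0 Gy (adjusted p = 0.0649) and -1.04 ± 0.35 at 400 Gy against 200 Gy (adjusted p = 0.0533). The ratio of summed heavy chain RPKM to summed light chain RPKM was 0.0422 and 0.0556 (0 Gy), 0.0322 and 0.0144 (200 Gy), then 0.282 and 0.250 (400 Gy). All 3 doses lay apart, but the ratio sets long genes over short ones and so also carries the length trend of the libraries. At 400 Gy against 200 Gy the median log2 fold change of all tested genes was 2.84 near 4482 bases and -1.18 near 513 bases. Paramyosin (unc-15, 2619 bases), the core protein of the filament, was named after its values were seen: it had 224 and 333 CPM at 0 Gy, 599.8 and 274 CPM at 200 Gy, and 1080.4 and 1085 CPM at 400 Gy. The myosin chaperone gene unc-45 had estimates between -0.09 and 0.30 in the 3 comparisons, with no call.

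Of the thin filament core, tropomyosin rose at 200 Gy and the actins passed no test. The tropomyosin gene lev-11 (chromosome I, 14621514 to 14630959, 1686 bases) had 482 and 615 CPM at 0 Gy, 1989 and 1504 CPM at 200 Gy, and 912 and 968 CPM at 400 Gy. The 3 doses did not overlap, with 200 Gy highest, and the rise at 200 Gy against 0 Gy was 3.18-fold (1.67 ± 0.38, adjusted p = 0.0297). Actin is made from act-1, act-2 and act-3, which lie together on chromosome V, and from act-4 on the X chromosome. Of these genes of nearly equal length, act-4 had 559 and 879.8 CPM at 0 Gy, 1991 and 1027 CPM at 200 Gy, and 1091 and 1179 CPM at 400 Gy. The act-2 gene had 898 and 639.6 CPM at 0 Gy, 1513 and 390.0 CPM at 200 Gy, and 1145 and 678 CPM at 400 Gy. Replicates of act-2 differed more than doses did, with replicate 1 above replicate 2 at each dose. The others were far lower, with act-1 at 14.8 and 15.4 CPM at 0 Gy, 38.6 and 16.9 CPM at 200 Gy, and 12.1 and 17.9 CPM at 400 Gy. The act-3 gene had 27.3 and 32.3 CPM at 0 Gy, 45.6 and 27.8 CPM at 200 Gy, and 39.8 and 50.1 CPM at 400 Gy. The 4 genes are near-identical copies, so their separate levels are uncertain; none was called in the 3 comparisons by edgeR, and at an unadjusted p under 0.05 act-4 passed at 200 Gy against 0 Gy. Tropomyosin passed at an unadjusted p under 0.05 at 400 Gy against 200 Gy (-0.89 ± 0.37, adjusted p = 0.0992).

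The troponin complex held the 2 members with the largest rises at 200 Gy against 0 Gy, pat-10 and unc-27. Troponin C is encoded by pat-10 (chromosome I, 5019003 to 5020063, 486 bases), which had 787 and 989.9 CPM at 0 Gy, 3278 and 4377 CPM at 200 Gy, and 803 and 823 CPM at 400 Gy. Both 200 Gy libraries were several times above the rest, which overlapped one another. The mean was 3828 ± 778 CPM at 200 Gy and 888 ± 144 CPM at 0 Gy (SD, n = 2 each). It rose 4.31-fold at 200 Gy against 0 Gy (2.11 ± 0.39, adjusted p = 0.0233) and fell at 400 Gy against 200 Gy (-2.23 ± 0.39, adjusted p = 0.00626). The troponin I gene unc-27 (chromosome X, 8789456 to 8790417, 729 bases), whose product holds the complex in the inhibited state without calcium, had 381 and 412 CPM at 0 Gy, 1443 and 1829 CPM at 200 Gy, and 803 and 885 CPM at 400 Gy. The doses were apart, 0 Gy lowest and 200 Gy highest, and the rise at 200 Gy against 0 Gy was 4.13-fold (2.04 ± 0.37, adjusted p = 0.0229). At 400 Gy against 0 Gy its estimate was 1.09 ± 0.36 (adjusted p = 0.140).

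Troponin T, which ties the complex to tropomyosin, has 3 genes on the list. Of these mup-2 (chromosome X, 6408699 to 6410208) had 329.5 and 429 CPM at 0 Gy, 1083 and 807 CPM at 200 Gy, and 606 and 681 CPM at 400 Gy. It was above 0 Gy in both 200 Gy libraries and rose at 200 Gy against 0 Gy (1.32 ± 0.37, adjusted p = 0.0483). The longest troponin gene, tnt-3 (chromosome X, 7937920 to 7944542, 3871 bases), had 9.09 and 12.8 CPM at 0 Gy, 5.58 and 5.97 CPM at 200 Gy, and 40.3 and 42.7 CPM at 400 Gy. It was low in all 6 libraries, lowest at 200 Gy and highest at 400 Gy without overlap, and rose 7.16-fold at 400 Gy against 200 Gy (2.84 ± 0.35, adjusted p = 0.00322). A further troponin I gene, tni-1 (753 bases), was named after its values were seen. It had 70.8 and 107 CPM at 0 Gy, 27.8 and 48.4 CPM at 200 Gy, and 28.6 and 51.6 CPM at 400 Gy. Against 0 Gy, all short genes had a median log2 fold change of 0.65 at 200 Gy and -0.35 at 400 Gy. The gene thus went against its length class at 200 Gy only. Both irradiated doses lay below 0 Gy without overlap, with estimates of -1.22 ± 0.44 at 200 Gy against 0 Gy (adjusted p = 0.0845) and -1.15 ± 0.43 at 400 Gy against 0 Gy (adjusted p = 0.175), neither past the threshold. The remaining tni-3 and tnt-2 had positive estimates against 0 Gy at both doses, from 0.66 to 1.49, with no call.

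Among the proteins that regulate thin filaments, the calponin-type genes rose at 200 Gy. The calponin gene cpn-3 (chromosome I, 3987978 to 3988554, 429 bases), the shortest member, had 317 and 385 CPM at 0 Gy, 1139.9 and 871 CPM at 200 Gy, and 423 and 485 CPM at 400 Gy, with both 200 Gy libraries above the rest. It rose at 200 Gy against 0 Gy (1.52 ± 0.36, adjusted p = 0.0340) and fell at 400 Gy against 200 Gy (-1.15 ± 0.36, adjusted p = 0.0435). The gene unc-87 (chromosome I, 6761767 to 6767790, 1729 bases), whose calponin-like repeats bundle actin, had 261 and 288 CPM at 0 Gy, 698 and 606 CPM at 200 Gy, and 398 and 459 CPM at 400 Gy. The doses did not overlap, with 0 Gy lowest, and the rise at 200 Gy was 2.38-fold (1.25 ± 0.34, adjusted p = 0.0457). Its overlap with F08B6.1 on the opposite strand is 182 bases of exon, and the library kit does not mark strand. Tropomodulin, the cap of the pointed filament end, is encoded by unc-94 (chromosome I, 5993301 to 6000774), which had 40.4 and 21.5 CPM at 0 Gy, 28.9 and 13.4 CPM at 200 Gy, and 57.5 and 54.1 CPM at 400 Gy. It was higher at 400 Gy than at 200 Gy (1.41 ± 0.46, adjusted p = 0.0492), close to the threshold. The actin-interacting protein unc-78 (1848 bases), which speeds the turnover of filaments, had 37.1 and 30.7 CPM at 0 Gy, 69.6 and 55.1 CPM at 200 Gy, and 45.2 and 42.8 CPM at 400 Gy, with estimates of 0.88 ± 0.30 (adjusted p = 0.0770) at 200 Gy and 0.37 ± 0.30 (adjusted p = 0.477) at 400 Gy, both against 0 Gy. The cofilin gene unc-60 had no call, with estimates from -0.33 to 0.81. Its length in the table is 954 bases, while its longest coding sequence has 456. Its exons overlap F53E2.2 on the same strand over 56 bases, so its level is uncertain.

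Among the 10 M-line and attachment adaptors 0 rose and 1 fell at 200 Gy against 0 Gy by edgeR's test, with 3 at an unadjusted p under 0.05, near the shares of all tested genes called (7.03% and 8.71%), and their estimates ran from -1.38 to 1.00. The gene that fell was unc-112 (chromosome V, 14692152 to 14696629, 2163 bases), the kindlin that binds the integrin tail, with 40.4 and 54.3 CPM at 0 Gy, 16.5 and 19.8 CPM at 200 Gy, and 84.1 and 85.2 CPM at 400 Gy. The 3 doses did not overlap, 200 Gy lowest and 400 Gy highest. Its log2 fold change was -1.38 ± 0.31 at 200 Gy against 0 Gy (adjusted p = 0.0304) and 2.22 ± 0.32 at 400 Gy against 200 Gy (adjusted p = 0.00411). The parvin gene pat-6 (chromosome IV, 262009 to 264224, 1128 bases), of the same integrin complex, had 50.9 and 59.4 CPM at 0 Gy, 98.2 and 122 CPM at 200 Gy, and 39.4 and 51.1 CPM at 400 Gy. It was highest at 200 Gy, and fell at 400 Gy against 200 Gy (-1.28 ± 0.32, adjusted p = 0.0202). The longest adaptor, the LIM domain gene lim-8 (chromosome III, 6802803 to 6815778, 3681 bases), had 12.3 and 20.00 CPM at 0 Gy, 11.6 and 7.41 CPM at 200 Gy, and 28.2 and 29.2 CPM at 400 Gy. It was higher at 400 Gy than at 200 Gy (1.60 ± 0.40, adjusted p = 0.0192).

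The immunoglobulin-domain gene dim-1, the most abundant adaptor per length, had 99.2 and 119.7 CPM at 0 Gy, 235.3 and 116 CPM at 200 Gy, and 204 and 217 CPM at 400 Gy, with its 400 Gy libraries above the 0 Gy ones and no call. The shortest adaptor, the zinc finger gene unc-98 of the M-line, had 8.11 and 12.3 CPM at 0 Gy, 14.6 and 17.7 CPM at 200 Gy, and 11.04 and 12.98 CPM at 400 Gy, with no call. The other 5, unc-95, unc-96, unc-97 (PINCH), pat-4 (the integrin-linked kinase) and lim-9, had estimates from -0.69 to 0.90 over the 3 comparisons, none past the threshold. Between 400 Gy and 200 Gy 2 of the 10 rose and 1 fell, near the shares of all tested genes (15.0% and 16.2%).

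Both integrins fell at 200 Gy against 0 Gy and rose at 400 Gy against 200 Gy. Near 2355 bases the median of all tested genes was -0.84 and 1.36 in these comparisons, and near 4482 bases -1.53 and 2.84. With the length correction described below neither integrin was called, with pat-2 at -0.86 and 0.97 and pat-3 at -0.57 and 0.63. The alpha integrin pat-2 (chromosome III, 8818902 to 8824978, 3681 bases) had 31.6 and 53.5 CPM at 0 Gy, 6.41 and 10.8 CPM at 200 Gy, and 79.6 and 95.5 CPM at 400 Gy. Each dose stood apart from the others, 200 Gy lowest and 400 Gy highest. It fell 4.91-fold at 200 Gy against 0 Gy (-2.30 ± 0.41, adjusted p = 0.0229) and rose 10.1-fold at 400 Gy against 200 Gy (3.34 ± 0.42, adjusted p = 0.00322). The beta integrin pat-3 (chromosome III, 3909329 to 3914129, 2430 bases), its partner in the receptor, had 152 and 127 CPM at 0 Gy, 66.4 and 34.4 CPM at 200 Gy, and 234 and 177 CPM at 400 Gy, in the same order. It fell at 200 Gy (-1.47 ± 0.41, adjusted p = 0.0479) and was 4.08-fold higher at 400 Gy than at 200 Gy (2.03 ± 0.42, adjusted p = 0.0101). For pat-2, 41 exon bases overlap F54F2.9 on the opposite strand.

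Vinculin (deb-1, chromosome IV, 7085688 to 7094266), which couples integrins to actin in the dense body, had 44.3 and 58.4 CPM at 0 Gy, 36.96 and 22.3 CPM at 200 Gy, and 138 and 138 CPM at 400 Gy. It rose at 400 Gy against 200 Gy (2.22 ± 0.37, adjusted p = 0.00555), with an estimate of -0.79 ± 0.36 at 200 Gy against 0 Gy (adjusted p = 0.145). The ALP/Enigma gene alp-1 (chromosome IV, 8852514 to 8862030, 4324 bases), a dense body protein, had 65.5 and 81.9 CPM at 0 Gy, 200.1 and 174 CPM at 200 Gy, and 135 and 126 CPM at 400 Gy. It was highest at 200 Gy and lowest at 0 Gy, and rose at 200 Gy against 0 Gy (1.34 ± 0.33, adjusted p = 0.0346). Its exons overlap 116 bases of C09G9.1 on the opposite strand, a gene with 4153 counts in all against 7975 for alp-1, so part of its reads may belong there. The zyxin gene zyx-1 (2050 bases) had 71.6 and 105 CPM at 0 Gy, 136 and 81.4 CPM at 200 Gy, and 150.5 and 129 CPM at 400 Gy, with no call, and the alpha-actinin gene atn-1 had estimates from 0.26 to 1.14 with no call.

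At the membrane, the calcium channel gene fell at 200 Gy against 0 Gy. Both it and the dystrophin gene rose at 400 Gy against 200 Gy. Near 4482 bases, all tested genes had median log2 fold changes of -1.53 and 2.84 in these comparisons. With the length correction described below neither gene was called, with egl-19 at -0.89 and 0.49 and dys-1 at 0.71 and -1.18. The L-type channel subunit egl-19 (chromosome IV, 7405582 to 7417909, 5634 bases), through which calcium enters the muscle, had 9.25 and 18.3 CPM at 0 Gy, 2.09 and 2.50 CPM at 200 Gy, and 27.7 and 27.9 CPM at 400 Gy. The doses did not overlap. It fell 5.94-fold at 200 Gy against 0 Gy (-2.57 ± 0.45, adjusted p = 0.0229) and rose 11.97-fold at 400 Gy against 200 Gy (3.58 ± 0.46, adjusted p = 0.00322), and it was counted 15 times in its smallest library. The dystrophin gene dys-1 (chromosome I, 11527077 to 11557792), the longest member, had 25.96 and 47.9 CPM at 0 Gy, 17.01 and 14.9 CPM at 200 Gy, and 124 and 106 CPM at 400 Gy. It was higher at 400 Gy than at 200 Gy (2.85 ± 0.39, adjusted p = 0.00365), and at 200 Gy against 0 Gy its estimate was -1.21 ± 0.37 (adjusted p = 0.0600). The syntrophin gene stn-1, which binds dystrophin, had 18.9 and 24.1 CPM at 0 Gy, 17.3 and 22.9 CPM at 200 Gy, and 16.6 and 18.3 CPM at 400 Gy, with no call. Its exons overlap F30A10.9 over 219 bases on the opposite strand, and F30A10.9 had 2738 counts in all against 1281 for stn-1, so its level is uncertain.

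Across the members, the fold change followed gene length. Spearman's correlation of log2 fold change with length was -0.59 at 200 Gy against 0 Gy, 0.64 at 400 Gy against 0 Gy and 0.76 at 400 Gy against 200 Gy (43 genes of the same libraries), next to -0.53, 0.39 and 0.69 over the 14417 tested genes. No p-value is attached, because genes of a library are not independent. By library, the short members' median log2 difference from the mean of the 0 Gy libraries was 1.41 and 0.90 (200 Gy), then 0.19 and 0.19 (400 Gy), and that of all short genes 0.47 and 0.73 (200 Gy), then -0.44 and -0.27 (400 Gy). For long members it was 0.73 and -0.038 (200 Gy), then 0.78 and 0.83 (400 Gy), and for all long genes -0.32 and -0.71 (200 Gy), then 0.30 and 0.22 (400 Gy). The members lay above all genes of their length class in each of the 4 irradiated libraries, on the TMM scale. Their share of a library's counts was 0.904% and 1.15% (0 Gy), 1.69% and 1.73% (200 Gy), then 1.46% and 1.57% (400 Gy).

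**Figure D3:**
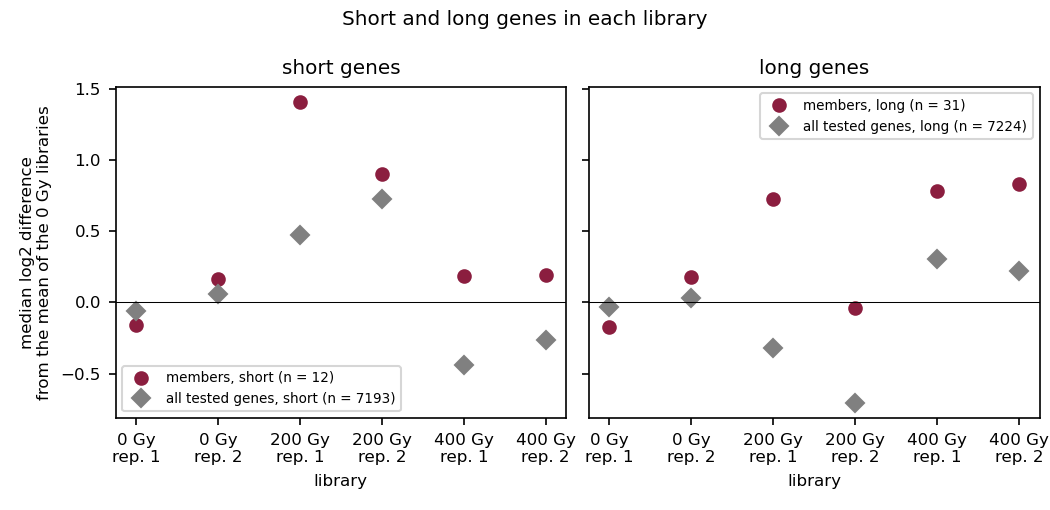
Median log2 difference from the mean of the 0 Gy libraries, per library, for the 12 short members and all short genes (left) and the 31 long members and all long genes (right), with the members as dark red circles and all tested genes as grey diamonds. At 200 Gy the short members reach 1.41 and 0.90, and at 400 Gy the long members reach 0.78 and 0.83.

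To set the members against genes of their own length, each library's loess trend on log2 length over all tested genes was removed and the test repeated. At 200 Gy against 0 Gy, 6 members were then higher and 1 lower, where 2.19% of all tested genes were higher and 2.41% lower. Those higher were unc-54 (log2 fold change 2.15, adjusted p = 0.0407), lev-11 (2.08, adjusted p = 0.0374), unc-87 (1.71, adjusted p = 0.0438), unc-78 (1.45, adjusted p = 0.0432), atn-1 (2.00, adjusted p = 0.0330) and alp-1 (2.82, adjusted p = 0.0233), and tni-1 was lower (-1.66, adjusted p = 0.0432). Of the 13 members called without the correction, 3 kept their call (lev-11, unc-87 and alp-1) and 10 lost it. Of those 10, mup-2 had an estimate as large as without the correction (1.36, adjusted p = 0.0808), and unc-27 (1.59, adjusted p = 0.0571) and pat-10 (1.34, adjusted p = 0.0957) kept much of theirs. The estimates of mlc-2 (1.04), mlc-3 (1.02), cpn-3 (0.77), pat-3 (-0.57), unc-112 (-0.54), pat-2 (-0.86) and egl-19 (-0.89) were nearer to 0 than without it, and none of the 13 changed sign. The correction used 1686 bases for lev-11, whose longest coding sequence has 852 bases, so its corrected value and call are uncertain. For alp-1, with 5 annotated transcripts, it used 4324 bases, and which transcripts gave the reads was not tested. The members' median was 0.77, against 0.091 over all tested genes.

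The corrected test of 400 Gy against 0 Gy called 0 members in edgeR, with 8 at an unadjusted p under 0.05, where 1.23% of all tested genes were higher and 0.603% lower, and the members' median was 0.41, against -0.078. For 400 Gy against 200 Gy it called 0 members higher and 4 lower, where 2.07% and 2.91% of all tested genes were called. Those lower were unc-45 (-1.44, adjusted p = 0.0498), unc-78 (-1.35, adjusted p = 0.0471), atn-1 (-1.52, adjusted p = 0.0495) and alp-1 (-3.12, adjusted p = 0.0138). None of the 16 members called without the correction kept its call. The estimates of unc-94 (1.36, adjusted p = 0.107) and pat-6 (-1.21, adjusted p = 0.0611) were about as large as without it, 11 others were nearer to 0 with the same sign, and unc-54 (-1.11), dys-1 (-1.18) and lim-8 (-0.64) turned negative. The median of the members was -0.37, against -0.085 over all tested genes. The source of the length trend was not tested.

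**Figure D4:**
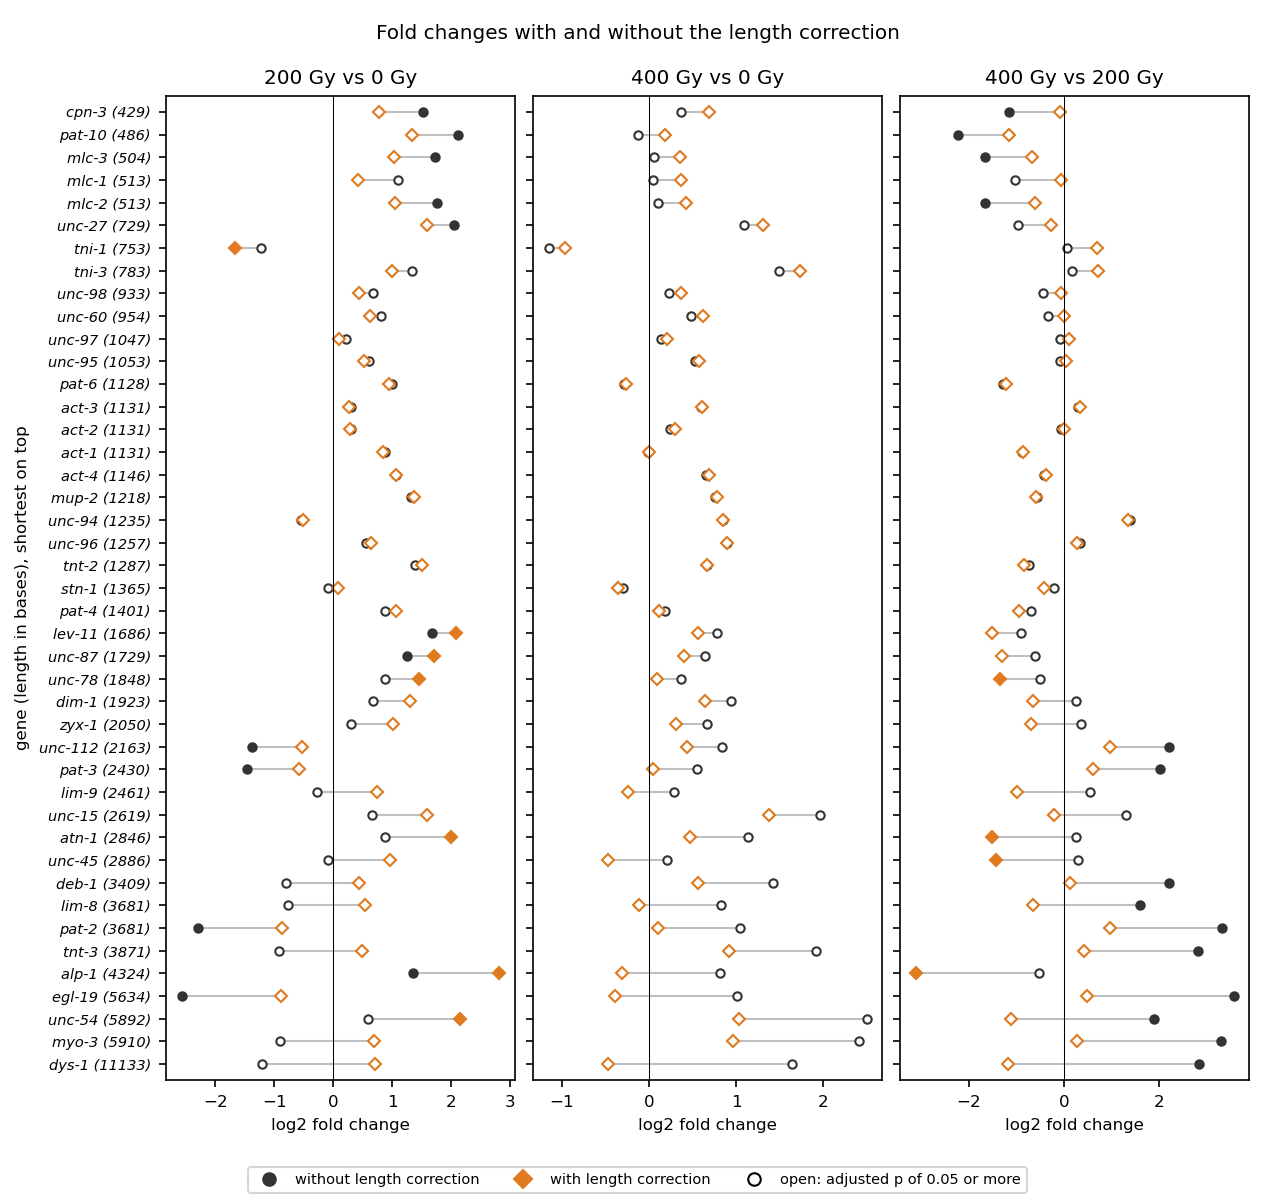
Log2 fold change of each of the 43 members, shortest on top, without the length correction (black circles) and with it (orange diamonds), for the 3 comparisons; filled marks have an adjusted p under 0.05. At 400 Gy against 200 Gy egl-19 is at 0.49 with the correction and 3.58 without it, and at 200 Gy against 0 Gy unc-54 is at 2.15 with it and 0.58 without it.

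Ratios between members of like length are taken within a library and do not depend on its scaling. In each role, pairs whose lengths differed by at most 1.1-fold were taken, which gave 19 pairs; the ratios are a description, chosen after values were seen. At 200 Gy the ratio lay above both 0 Gy libraries in 8 pairs, below in 3 and overlapped in 8. At 400 Gy it lay above 0 Gy in 4, below in 4 and overlapped in 11. Against 200 Gy it lay above in 2, below in 9 and overlapped in 8. The numerator was the gene with the higher mean RPKM over all libraries, so above and below have no further direction. Genes recur across pairs, and no share over all like-length gene pairs was taken to set beside these counts. The ratio of unc-27 to tni-1, both troponin I genes, was 5.56 and 3.98 (0 Gy), 53.7 and 39.0 (200 Gy), then 28.96 and 17.7 (400 Gy). The ratio of tni-1 to tni-3 was 5.05 and 5.26 (0 Gy), 0.478 and 1.71 (200 Gy), then 0.537 and 1.19 (400 Gy), so both irradiated doses lay below 0 Gy. The ratio of unc-54 to myo-3 was 9.34 and 11.4 (0 Gy), 31.1 and 26.5 (200 Gy), then 14.7 and 8.85 (400 Gy), which overlaps 0 Gy. Vinculin over alpha integrin (deb-1 over pat-2) was 1.51 and 1.18 (0 Gy), 6.22 and 2.24 (200 Gy), then 1.87 and 1.56 (400 Gy). The troponin T pair tnt-2 over mup-2 overlapped at all doses, between 0.934 and 1.51.

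**Figure D5:**
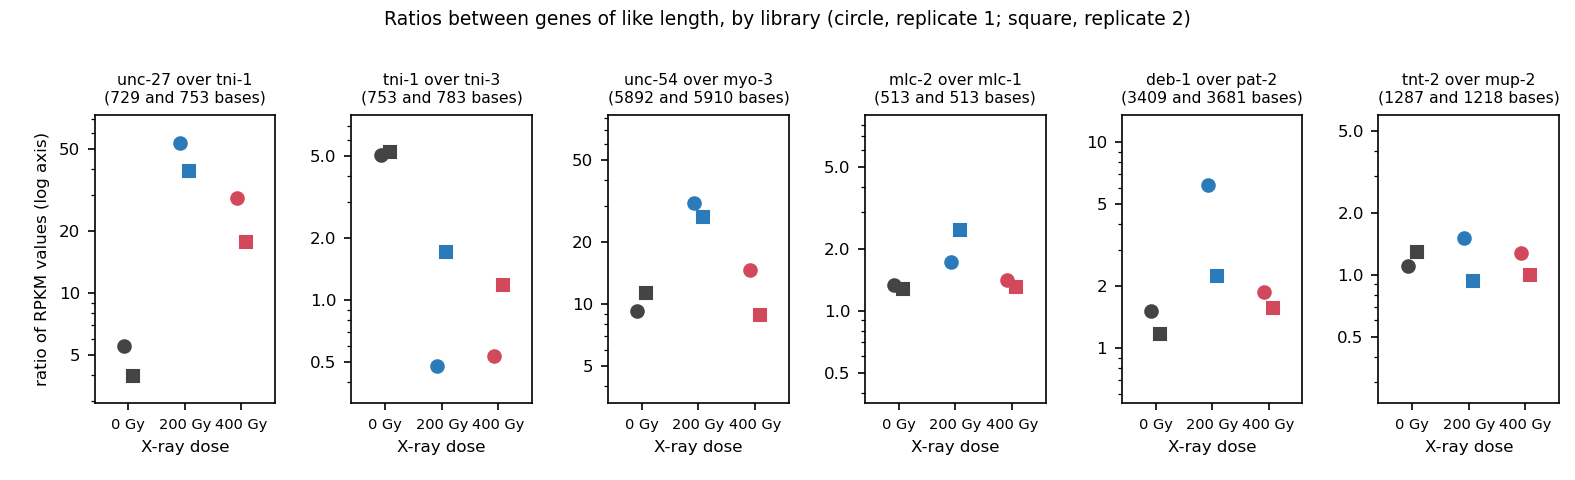
Ratios of RPKM between 6 pairs of members of like length, on log axes that span the same range in each panel, with the lengths of the pair in brackets; circles are replicate 1 and squares replicate 2. The ratio of unc-27 to tni-1 is 53.7 and 39.0 at 200 Gy, against 5.56 and 3.98 at 0 Gy, while the ratio of tnt-2 to mup-2 overlaps across doses.

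Other body wall muscle genes, which are no members, were set beside them from a list of 41, of which 40 were found and tested. Most of the 40 are long genes, with short ones such as mlp-1 (521 bases) among them. At 200 Gy against 0 Gy 1 rose (2.50%) and 7 fell (17.5%), with a median of -0.73. Of all long genes 1.99% rose and 15.9% fell, and of all short genes 12.1% and 1.49%. Set against 200 Gy, 15 rose at 400 Gy (37.5%) and 1 fell (2.50%), with a median of 0.86. Of all long genes 27.9% rose and 2.89% fell, and of all short genes 1.96% and 29.6%. At 400 Gy against 0 Gy edgeR called 0, with 10 at an unadjusted p under 0.05. The 4 with the smallest p at 200 Gy were the ryanodine receptor unc-68 (-2.94, adjusted p = 0.0213), the titin-like ttn-1 (-2.35, adjusted p = 0.0302) and twitchin, unc-22 (-2.54, adjusted p = 0.0324), all lower, and the short LIM gene mlp-1 (2.05, adjusted p = 0.0263), higher. At 400 Gy against 200 Gy the 4 were unc-68 (5.35, adjusted p = 0.00243), ttn-1 (6.45, adjusted p = 0.00243), unc-22 (7.18, adjusted p = 0.00265) and kettin, ketn-1 (5.59, adjusted p = 0.00293), all higher and all longer than any member. With the length correction the medians of the 40 were 0.013 at 200 Gy against 0 Gy and -0.030 at 400 Gy against 200 Gy. The muscle transcription factor genes hlh-1 and unc-120 had 0.07 ± 0.54 and -0.98 ± 0.47 at 200 Gy against 0 Gy, neither past the threshold.

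Markers of other cell types also differed between the libraries. As shares of all tested genes, 7.03% rose and 8.71% fell at 200 Gy against 0 Gy. At 400 Gy these shares were 0.0416% and 0.00694% against 0 Gy, and 15.0% and 16.2% against 200 Gy. Summed CPM, by library totals without TMM, of the 7 pharyngeal muscle markers, which include the myosins myo-1 and myo-2, were 35.5 and 37.5 (0 Gy), 43.96 and 108 (200 Gy), then 179 and 194 (400 Gy), with 1 or 2 of the 7 at 0 counts in each library, all of them among the 2 that were too low to test (ceh-22 and pqn-91). Of the 5 tested, the troponin genes tni-4 and tnc-2 rose at 200 Gy and the myosin genes myo-1 and myo-2 at 400 Gy, all against 0 Gy. The 12 hypodermis markers summed to 722 and 790.2 (0 Gy), 192 and 169 (200 Gy), then 205 and 441 (400 Gy). Of the 12, 7 fell at 200 Gy against 0 Gy, and 4 with the length correction. Intestine markers (12) summed to 29476 and 54432 (0 Gy), 35892 and 15650 (200 Gy), then 62673 and 39860 (400 Gy). Against 0 Gy edgeR called 0 of them at either dose, with 2 at an unadjusted p under 0.05 at each. Germline and oocyte markers (14) summed to 6483 and 2557 (0 Gy), 4806 and 1151 (200 Gy), then 11585 and 6247 (400 Gy), with replicate 1 above replicate 2 at each dose. EdgeR called 0 of the 14 in any comparison, with 1 at an unadjusted p under 0.05, at 400 Gy against 200 Gy. Of the 14 neuron markers 1 rose and 4 fell at 200 Gy against 0 Gy (0 and 1 with the length correction). Their sums were 675 and 842 (0 Gy), 390.3 and 598 (200 Gy), then 444 and 602 (400 Gy). Of 12 genes of non-muscle actomyosin 3 fell at 200 Gy against 0 Gy, and 5 rose and 2 fell at 400 Gy against 200 Gy. In the latter comparison 27.9% of all long genes rose and 29.6% of all short genes fell. With the length correction 0 of these 12 genes were called in any comparison. The 13 sperm markers summed to 29.4 and 28.0 (0 Gy), 30.0 and 101 (200 Gy), then 72.9 and 179 (400 Gy). Of the 11 tested, edgeR called 2 higher at 200 Gy and 0 at 400 Gy, both against 0 Gy. At 400 Gy all 11 had an unadjusted p under 0.05 and lay above both 0 Gy libraries, as did 28.1% of all tested genes for the latter. With the length correction 4 of the 11 were higher at 400 Gy than at 0 Gy, where 1.23% of all tested genes were. The part of these cell types in the members' values was not tested.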

How the data were processed

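The 6 libraries were taken from the deposited table of raw counts and RPKM per gene, with a Length column. The authors' RPKM, per the file headers, divides the deposited counts by that length and the library total. TopHat2 2.0.13, bcl2fastq and the genome build WBcel235 are named, per the submitters' processing notes, without their roles; no source used here gives the counter, the annotation release or the strand setting. Libraries were grouped by dose. Counts were filtered with filterByExpr, scaled by TMM and tested with edgeR 4.0.16 (limma 3.58.1, R 4.3.3) by the quasi-likelihood test on all 6 libraries, with Benjamini-Hochberg adjustment at 0.05. Of the 43 members' lengths, 35 are multiples of 3 and 27 lie within 3 bases of the longest coding sequence, so most are coding lengths.

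The members and gene lists were chosen with earlier results of these data known. Named genes were the called members, the 2 of highest mean RPKM in each role, the shortest and the longest in each role, and up to 4 called other muscle genes per comparison. The length correction removed a loess trend (span 0.3) of each library's log2 deviation on log2 length as an offset. Alternatives were DESeq2 1.42.0 (Wald test and size factors), upper-quartile scaling, other count filters, the compared libraries alone, a replicate block, the length correction, removal of ribosomal RNA rows (0.696% to 9.26% of counts) and leaving out each library; scaling by library totals was added after seeing the data. The common biological coefficient of variation was 35.1%. The scripts were tested on simulated data. No sequence was used.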

Additional observations from a re-analysis of the deposited data

How the results depend on the processing

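At 400 Gy against 0 Gy, where 7 genes and 0 members were called, DESeq2 size factors gave 273 genes and 3 members, DESeq2's Wald test 1353 and 9, no filter on low counts 230 and 3, the 4 compared libraries alone 2145 and 9, and total-count scaling 13 genes. The length correction gave 265 genes, and its median for the members was 0.41; total-count scaling gave a median of 0.34, and 0.072 at 200 Gy against 0 Gy. At 200 Gy against 0 Gy the length correction called 664 genes and 7 members, against 2269 and 13 without it, and at 400 Gy against 200 Gy 717 and 4, against 4495 and 16.

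With a replicate block 6444 genes and 25 members were called at 200 Gy against 0 Gy, 3586 and 15 at 400 Gy against 0 Gy, and 7640 genes at 400 Gy against 200 Gy. With the length correction and the replicate block together the calls were 4616 genes and 23 members at 200 Gy against 0 Gy, 2513 and 7 at 400 Gy against 0 Gy, with a members' median of 0.41, and 4654 and 17 (5 higher, 12 lower) at 400 Gy against 200 Gy; 10 of the 13 and 6 of the 16 members called without either kept their call. The replicate numbers were not taken as pairs: there are only 2, the labels do not say that they mark a batch, and the correlation of the replicate difference between doses was 0.479 (0 and 200 Gy), 0.375 (0 and 400 Gy) and 0.596 (200 and 400 Gy).

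The length correction turned the sign of 8 of the 43 members at 200 Gy against 0 Gy, 7 at 400 Gy against 0 Gy and 12 at 400 Gy against 200 Gy, some of them near 0. Among those followed under each setting were dys-1 (0.71) and myo-3 (0.68) at 200 Gy against 0 Gy, dys-1 (-0.47) at 400 Gy against 0 Gy, and atn-1 (-1.52), dys-1 (-1.18), lim-8 (-0.64), unc-15 (-0.21), unc-45 (-1.44) and unc-54 (-1.11) at 400 Gy against 200 Gy. With the replicate block added these were 0.72, 0.71, -0.45, -1.52, -1.17, -0.65, -0.22, -1.43 and -1.12 in the same order. At 200 Gy against 0 Gy unc-54 was -0.0055 under total-count scaling, and without replicate 1 at 200 Gy unc-54 was -0.27 and unc-15 -0.21; over the 6 libraries left out in turn unc-54 reached 0.99 and unc-15 1.008 at most. The cause was not tested.

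Leaving out 1 library at a time, genes called ran from 0 to 4708 at 200 Gy against 0 Gy, 0 to 2438 at 400 Gy against 0 Gy and 1332 to 5837 at 400 Gy against 200 Gy. Members called ran from 0 to 13, 0 to 10 and 7 to 17 in that order, and their medians from 0.098 to 0.87, 0.52 to 0.74 and -0.070 to 0.40. By edgeR's test 0 genes were called at 200 Gy against 0 Gy without replicate 1 (3229 at an unadjusted p under 0.05) or replicate 2 (3011) at 0 Gy. With 1 library left at a dose, it is assumed to vary like the other doses. With 2 libraries per dose no exact test could go below p = 0.333.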
